A study of Mus musculus with 12 samples.

Results

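Zscan4 is a mouse gene family whose members sit in one cluster on chromosome 7, and its reads were followed through 2 experiments on 2-cell embryos. Members were taken by symbol, as genes named Zscan4 followed by a single letter or by a pseudogene suffix. The rule found 9 of the 20244 genes listed in either table. The knockdown table held 8 of these among 17866 genes, and the immunoprecipitation table held all 9 among 19390. RefSeq's gene table (assembly GRCm38.p6) matched 8 of the 9. It lists Zscan4b, Zscan4c, Zscan4d and Zscan4f as protein coding, Zscan4a as a transcribed pseudogene, and Zscan4e, Zscan4-ps1 and Zscan4-ps3 as pseudogenes. Zscan4-ps4 was not matched and had no read in the 4 libraries used of the table that lists it.

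A Zscan4 protein carries a SCAN domain, through which such proteins pair, and a set of zinc fingers that bind DNA. In the mouse embryo the family is switched on in a burst when the embryo's own genome is first transcribed, at the 2-cell stage, and is silent at most other times. In embryonic stem cells it marks a transient 2-cell-like state, in which it has been tied to telomere lengthening by recombination and to loss of DNA methylation. Dux and the pair Dppa2 and Dppa4 are known activators of this state, and repressors such as Trim28 and Rif1 hold it down.

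The knockdown experiment compared wild-type control embryos with embryos labelled Eif1ad3_KD, 2 libraries each (replicates A and B), all collected at the 2-cell stage. Eif1ad3 belongs to a family of genes related to the translation initiation factor Eif1a. The design text gives the embryos as CF1, an outbred strain, injected at the 1-cell stage with RfxCas13d mRNA (RfxCas13d cuts RNA), and says that only the knockdown embryos also received guide RNA. The sample protocols instead describe morpholino oligos and Cas13d protein given to oocytes, with a control oligo in the controls. In the immunoprecipitation experiment, zygotes received in vitro transcribed mRNA of His-tagged Eif1ad3 at 200 ng/uL, so that both the His and the IgG libraries come from embryos labelled Eif1ad3_OE. Each replicate used 200 cells, whose RNA was pulled down with anti-His or, as background control, with IgG (2 libraries each). The tagged protein came from injected mRNA and not from the embryo's own gene. Nothing in the labels says that replicates came from separate collections, so p-values measure only the spread between these libraries.

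The read totals by which the values are scaled ran from 18173916 to 27902514 in the embryo libraries and from 4678563 to 8364126 in the pull-down libraries. These totals need not equal the number of reads sequenced. The IgG libraries held 6816 and 7173 genes with a read, against 14077 and 14244 in the His libraries. Eif1ad3 itself was at 839 and 663 CPM (the library-scaled read count of the tables) in the controls and at 277 and 377 CPM in the knockdown libraries, a difference that did not pass the test used below (limma adjusted p = 0.859). Markers of the 2-cell embryo other than Zscan4 were above 0 in all 4 of these libraries (7 of 7 genes). Their summed level was 4281 and 3997 CPM in controls A and B, and 3196 and 3227 CPM in knockdown A and B. Of the 10 oocyte markers, all were above 0 in all 4 libraries, with sums of 4188 and 3509 CPM in controls and 7949 and 3882 CPM in knockdown. Knockdown A was the highest library for 7 of the 10, but not for Zp1, Zp2 and Zp3, which encode zona pellucida proteins. Zp2 was at 172 CPM there and at 175 and 154 CPM in the controls. Of the 10 markers of cumulus and granulosa cells, 5 were listed, and they summed to 18.0 CPM at most.

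The promoters of the coding copies are shown because they carry the elements these genes share and show how alike the copies are upstream. RefSeq's promoter table (GRCm38.p6) held 4 of the 9 members, the 4 coding genes. The 250 bases before the gene start of Zscan4d, the member with the most reads in the embryos, lie on the minus strand at chr7:11166149-11166398. In the sequence below, written 5′ to 3′, capitals mark a TATAAA and a CCAAT, the letters of the TATA box and the CCAAT box.
Zscan4d: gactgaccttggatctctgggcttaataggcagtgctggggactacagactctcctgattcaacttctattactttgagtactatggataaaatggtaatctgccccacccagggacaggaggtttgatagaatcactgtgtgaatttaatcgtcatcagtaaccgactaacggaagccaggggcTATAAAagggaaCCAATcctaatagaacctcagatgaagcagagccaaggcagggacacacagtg

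An 80-base stretch that holds both motifs was then aligned between the 4 coding genes, without gaps. Capitals in the next lines mark bases that differ from Zscan4d. The stretches lie at chr7:10905062-10905141 (minus strand, Zscan4b), chr7:11005631-11005710 (plus strand, Zscan4c), chr7:11166194-11166273 (minus strand, Zscan4d) and chr7:11397824-11397903 (plus strand, Zscan4f).
Zscan4b: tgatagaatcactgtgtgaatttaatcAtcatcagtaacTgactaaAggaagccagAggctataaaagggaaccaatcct
Zscan4c: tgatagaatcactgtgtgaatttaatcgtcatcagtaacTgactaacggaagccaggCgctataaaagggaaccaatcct
Zscan4d: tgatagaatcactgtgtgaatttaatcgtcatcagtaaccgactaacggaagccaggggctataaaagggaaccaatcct
Zscan4f: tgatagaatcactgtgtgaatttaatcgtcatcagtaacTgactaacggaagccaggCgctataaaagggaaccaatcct

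Zscan4b differed from Zscan4d at 4 of these 80 bases, and Zscan4c and Zscan4f at 2 each. Over the aligned part of the upstream windows (216 to 250 bases), identity in the 6 pairs ran from 94.7% between Zscan4b and Zscan4c to 99.6% between Zscan4c and Zscan4f. TATAAA was found in 4 of 4 coding members, against 12.4% of the 32851 upstream windows of 250 bases in the table, searched on both strands. CCAAT was found in 4 of 4, against 33.8% of windows. Both on the gene's own strand were found in 4 of 4, against 1.55% of windows. The TATAAA began 31 bases before the gene start in Zscan4b and Zscan4f, 54 in Zscan4c and 65 in Zscan4d. The core GATTNAATC, which Dux is known to bind, was in none of the 4 windows and in 0.247% of all windows. These windows are copies of one another, so the 4 matches are not independent. They lie upstream of the counted transcripts, and transcript sequences were not compared. How reads that fit several copies were counted is not given in the sources used here, so the value of any single member is uncertain, and the family sum is given beside it.

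In the knockdown experiment, Zscan4d held most of the family's reads and was lower in both knockdown libraries than in both controls, but no member passed the test. Zscan4d was at 710 and 713 CPM in controls A and B, and at 487 and 541 CPM in knockdown A and B. The controls lay close together and the groups did not overlap. The knockdown mean (514 ± 38.3 CPM) was 72.3% of the control mean (712 ± 2.03 CPM; SD, n = 2 each). On the log2(CPM + 1) scale the difference was -0.47 with a standard error (SE) of 0.30 and a 95% interval from -1.15 to 0.21. Its adjusted p from limma, fitted over all 13332 genes tested with Benjamini-Hochberg adjustment, was 0.859. The interval includes 0. In bulk libraries, fewer expressing cells and less RNA per cell cannot be told apart.

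Zscan4c, the copy through which the family is most often studied in stem cells, also had both knockdown libraries below both controls, but with controls further apart. It was at 110 and 83.3 CPM in controls and at 67.3 and 78.0 CPM in knockdown. The lower control nearly met the higher knockdown library, and the knockdown mean was 75.1% of the control mean. The difference was -0.40 (SE 0.36, interval -1.23 to 0.44, limma adjusted p = 0.898), and was -0.20 without control A and -0.60 without control B.

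The 2 remaining coding copies overlapped between groups. Zscan4b was at 28.2 and 19.3 CPM in controls and at 23.2 and 27.8 CPM in knockdown, a difference of 0.12 (SE 0.45, limma adjusted p = 0.987). Zscan4f was at 21.6 and 10.9 CPM in controls and at 22.9 and 13.8 CPM in knockdown, a difference of 0.20 (SE 0.54, limma adjusted p = 0.982). For Zscan4f the spread within each group exceeded the difference between the group means. The direction of both turned when single libraries were left out: Zscan4b moved to -0.15 without control B, and Zscan4f to -0.27 without control B and to -0.15 without knockdown A.

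**Figure D1:**
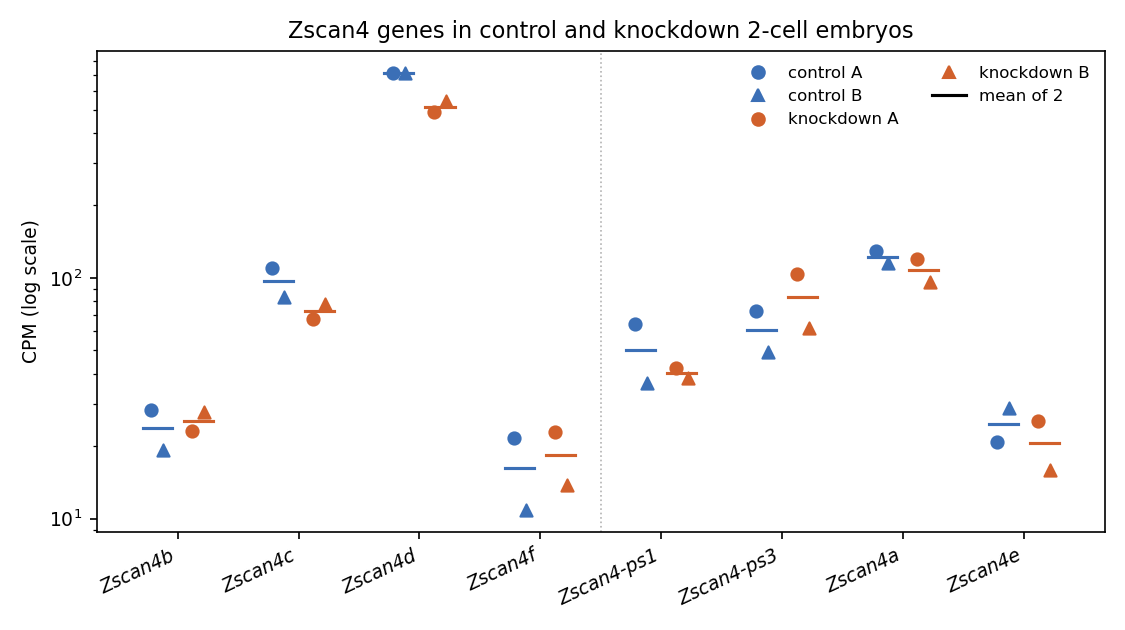
CPM of each Zscan4 gene (log scale) in the control (blue) and knockdown (orange) libraries; circles are replicate A, triangles replicate B, and bars the mean of 2. Coding genes stand left of the dotted line and pseudogenes right of it. Zscan4d and Zscan4c are the members whose groups do not overlap.

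The pseudogene copies also carried reads, and none of them separated the groups. Zscan4a, the pseudogene with most reads in the controls, was at 129 and 116 CPM in controls and at 119 and 96.4 CPM in knockdown, a difference of -0.19 (SE 0.34, limma adjusted p = 0.965) that was -0.033 without knockdown B and -0.34 without knockdown A. Zscan4e was at 20.8 and 28.8 CPM in controls and at 25.3 and 15.9 CPM in knockdown. Its groups overlapped, and the difference of -0.27 became 0.050 without knockdown B.

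Zscan4-ps1 was at 64.3 and 36.5 CPM in controls and at 42.1 and 38.2 CPM in knockdown. Control A alone was high, and the difference of -0.27 became 0.13 without it. Zscan4-ps3 went the other way, at 73.0 and 49.0 CPM in controls and at 104 and 61.8 CPM in knockdown. Its difference of 0.42 (SE 0.42, interval -0.55 to 1.39, limma adjusted p = 0.910) was the highest of the 8 and moved with each library: it was 0.046 without knockdown A, which has the highest oocyte marker sum, 0.79 without knockdown B, 0.70 without control A and 0.14 without control B. The part of those markers in the result was not tested.

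Summed over members, the family was at 1157 and 1057 CPM in controls A and B and at 892 and 873 CPM in knockdown A and B. Both knockdown libraries were again lower, at a mean (882 ± 12.9 CPM) of 79.7% of the control mean (1107 ± 71.1 CPM), a log2 ratio of -0.33, given without a test. The coding members alone summed to 870 and 827 CPM in controls and to 601 and 661 CPM in knockdown, a log2 ratio of -0.43.

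Of the 8 members, 0 were called at an adjusted p under 0.05, as were 0.0% of all genes tested, and 0 members had an unadjusted p under 0.05 (726 of all 13332 genes did). DESeq2 and edgeR on the recovered reads called 0 members. Groups did not overlap, with knockdown lower, for 2 of 8 members, beside 18.4% of all genes. None was higher without overlap, beside 18.1% of all genes. The members' median difference was -0.23 and that of all genes 0.02.

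Other genes within the span of the cluster carried few reads in the embryos. RefSeq places 41 genes between the outermost Zscan4 genes, of which 32 have another name. The knockdown table listed 10 of these 32, and none was above 12.5 CPM in any library. The immunoprecipitation table listed 7, of which the pseudogene Gm45598, singled out after its values were seen, was at 14.6 and 11.2 CPM in His and at 19.7 and 0.427 CPM in IgG, a level like that of Zscan4d and Zscan4a in His. Zscan4-ps2, also in the span, was not analysed here.

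The level of the family and the make-up of its reads were then followed in the pull-down. These libraries come from other embryos and a separately normalized table than the knockdown experiment. The His libraries held 352 and 363 Zscan4 reads (42.1 and 45.8 CPM), against 10 reads (1.69 CPM) in IgG A and 251 (53.6 CPM) in IgG B. The IgG libraries thus stood far apart, with IgG B above both His libraries and IgG A far below them. The log2 ratio of the family sum was 0.67 over all 4 libraries, -0.29 without IgG A and 4.70 without IgG B. Reads come from PCR without molecular identifiers, so the counting intervals below cover counting error only.

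Zscan4a, the transcribed pseudogene, had reads in both His libraries and almost none in IgG. It had 166 and 106 reads in His A and B (19.8 and 13.4 CPM), and 0 and 1 read in IgG A and B (0 and 0.214 CPM). The rate of reads was 177 times higher in His, with an exact 95% counting interval of 31.5 to 7022. The difference was 3.97 (SE 0.40, interval 2.77 to 5.18, limma adjusted p = 0.00997 over 11232 genes). Zscan4a entered this test only through the His libraries, where it is high, and without the filter on low values its adjusted p was 0.0245. Without either His library the filter removed it, which left 13 settings with a value. It kept its direction in these 13, exceeded the all-gene median in the 11 settings that use all 4 libraries, and passed the test in 11 of the 13. It missed it with edgeR (7.13, adjusted p = 0.0547) and with quantile normalization (0.45, adjusted p = 0.596).

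Zscan4c had 22 and 23 reads in His (2.63 and 2.90 CPM) and 2 and 2 in IgG (0.338 and 0.427 CPM). The replicates lay close together within both groups and the groups did not overlap. The difference was 1.45 (SE 0.20, limma adjusted p = 0.0154), or 7.33 times the read rate (exact counting interval 2.67 to 28.1). Zscan4c passed the filter on low values only through the His libraries, and without the filter its adjusted p was 0.0511. It passed the test in 5 of 12 settings, turned to -1.43 with quantile normalization, and missed the threshold without IgG A (adjusted p = 0.155) and without IgG B (0.132). The Zscan4c difference was below the median difference of all genes, which was 2.01, but it was above the all-gene median of the same setting by 1.18 with edgeR, 1.24 with DESeq2 and 0.20 without the filter.

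Zscan4d, the copy with most reads in embryos, had 110 and 134 reads in His (13.2 and 16.9 CPM), 6 in IgG A (1.01 CPM) and 49 in IgG B (10.5 CPM). Both His libraries were higher, but IgG B came close. The difference of 1.73 (SE 1.11, interval -1.59 to 5.05, limma adjusted p = 0.360) did not pass. It became 0.47 without IgG A and 2.98 without IgG B, and turned to -1.46 with quantile normalization.

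Zscan4e and Zscan4b were high in a single IgG library. Zscan4e had 33 and 41 reads in His (3.95 and 5.18 CPM), 0 in IgG A and 149 in IgG B (31.8 CPM). Its difference of -0.05 (SE 1.98, limma adjusted p = 0.991) became -2.57 (adjusted p = 0.0180) without IgG A and 2.47 (adjusted p = 0.0331) without IgG B, so the control library decided both direction and call. Zscan4b, too low to be tested, had 5 and 7 reads in His (0.598 and 0.884 CPM), 0 in IgG A and 48 in IgG B (10.3 CPM).

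The other members had few reads. Zscan4-ps3 had 11 and 34 reads in His (1.32 and 4.29 CPM) and 0 and 2 in IgG, and its difference of 1.55 (limma adjusted p = 0.117) did not pass and turned to -0.96 with quantile normalization. Zscan4-ps1 had 4 and 17 reads in His against 1 and 0 in IgG, and Zscan4f had 1 read in each of 3 libraries and 0 in IgG B. Zscan4-ps4 had 0 reads in each of the 4 libraries, which allows at most 3 reads, equal to 0.359 to 0.641 CPM at the depth of each.

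**Figure D2:**
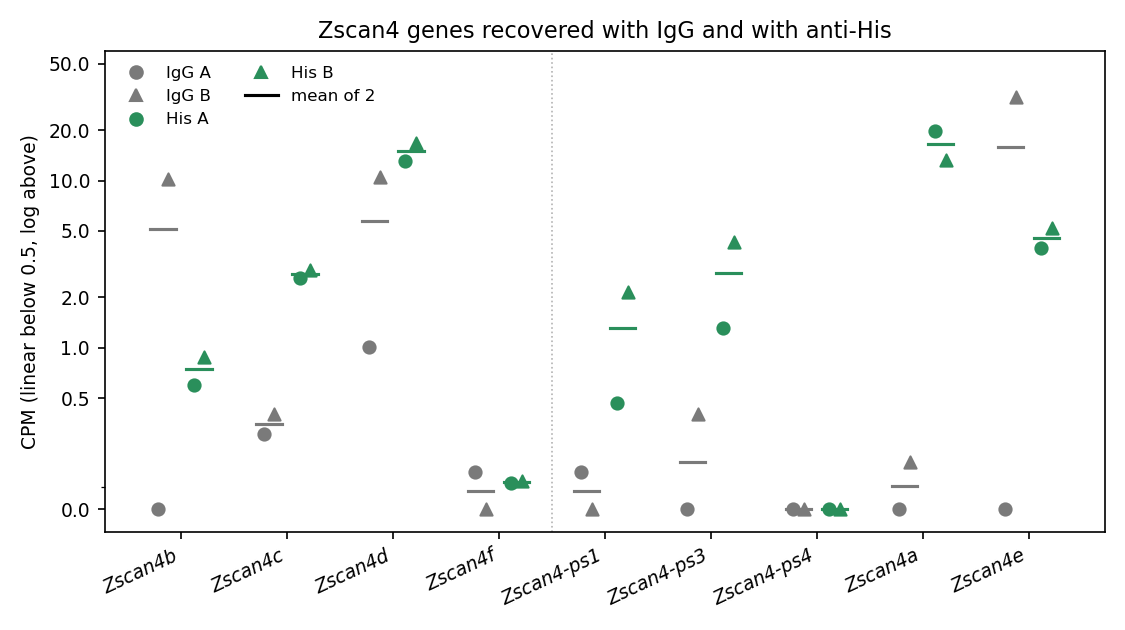
CPM of each Zscan4 gene in the IgG (grey) and His (green) libraries; circles are replicate A, triangles replicate B, and bars the mean of 2. The axis is linear below 0.5 CPM and logarithmic above. Zscan4a and Zscan4c separate His from both IgG libraries by the widest margins, and IgG B is the top library for Zscan4b and Zscan4e.

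Of the 9 members, 5 passed the filter on low values and 2 of these, Zscan4a and Zscan4c, were called, both higher in His. Of all 11232 genes tested, 36.6% were called, 35.7% higher and 0.917% lower. Both His libraries were above both IgG libraries for 4 of the 5, beside 54.1% of all genes, and below them for 0 of the 5, beside 9.06%. Zscan4a, Zscan4c and Zscan4-ps3 passed the filter only through the His libraries, so these counts support nothing about the family. The tested members' median difference was 1.55. The median of all genes, 2.01 here, depends on the setting and not on the scaling alone. Quantile normalization moved this median to -0.08, and median rescaling moved it to 2.26. At unchanged scaling it was 3.66 with a pseudocount of 0.1 and 0.94 with a pseudocount of 5. Without the filter it was 1.24, and where the mean had to reach 5 CPM it was 1.76. DESeq2 gave 1.30 and edgeR 1.56, but both used recovered reads in place of log2(CPM + 1). Relative to the all-gene median of the same setting, Zscan4a lay 0.53 to 5.83 higher over the settings with 4 libraries. Zscan4e lay 1.30 to 3.26 lower over these, and Zscan4c and Zscan4d lay on either side. The position of Zscan4e depended on the IgG library: relative to that median it was 0.05 without IgG B and -4.74 without IgG A.

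**Figure D3:**
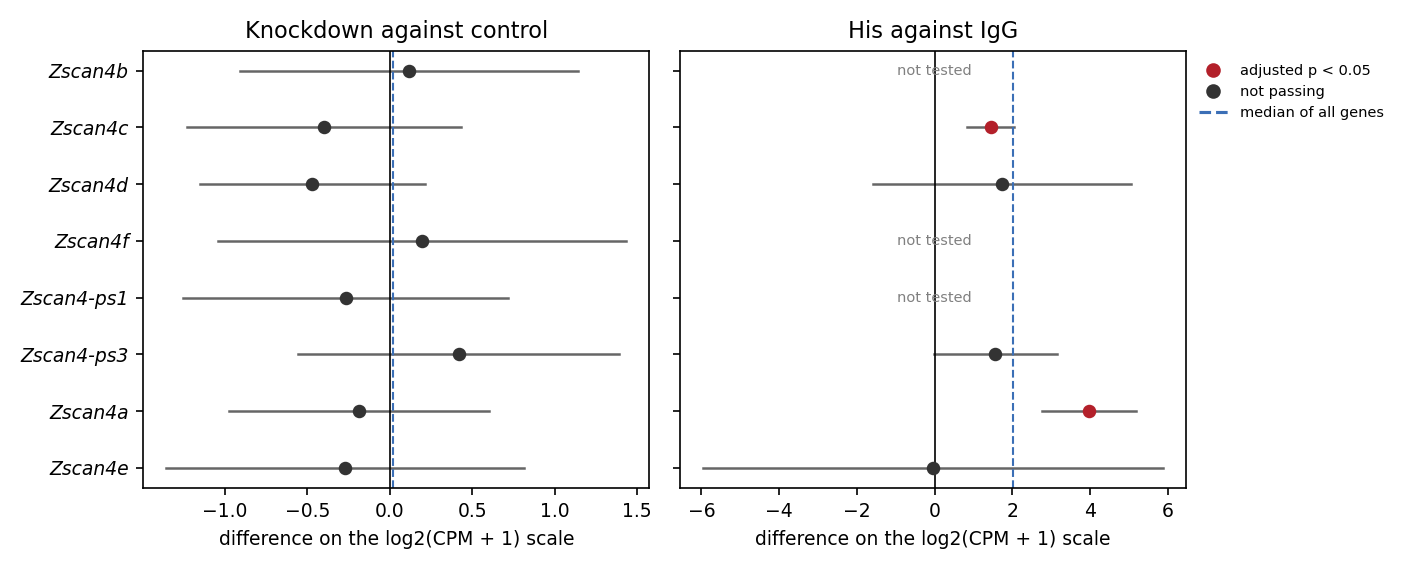
Difference on the log2(CPM + 1) scale for each Zscan4 gene, knockdown against control (left) and His against IgG (right); points are limma estimates, lines 95% intervals, red marks an adjusted p under 0.05, and the dashed line is the median of all genes tested. Every knockdown interval crosses 0. Zscan4a alone lies above the dashed line on the right with its whole interval. It passed the filter on low values only through the His libraries, and its difference was 0.45 with quantile normalization. Members marked as not tested there were too low (Zscan4-ps4, at 0 reads, is not drawn). The signs of Zscan4c, Zscan4d and Zscan4-ps3 on the right turn with quantile normalization, and that of Zscan4e with median rescaling and a pseudocount of 0.1.

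The make-up of the family's reads was measured as each copy's share of all Zscan4 reads in a library. These shares are not per length, so they compare a copy between libraries and not copies with each other. Zscan4d made up 61.4% and 67.5% of Zscan4 reads in controls, 54.6% and 62.0% in knockdown, and 31.3% and 36.9% in His. It was lower still, 19.5%, in IgG B, so a low share was not limited to the His libraries. The 95% Wilson intervals in His, 26.6 to 36.3% and 32.1 to 42.0%, lay below the share in every embryo library. Zscan4a had a higher share in His than in the embryos. Its share was 11.1% and 11.0% in controls, 13.4% and 11.0% in knockdown, and 47.2% and 29.2% in His (intervals 42.0 to 52.4% and 24.8 to 34.1%). The His replicates stood apart for Zscan4a, and both lay above the 4 embryo libraries. In IgG B its share was 0.398%, on 1 of 251 reads.

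Zscan4e likewise took 1.79% to 2.84% of Zscan4 reads in the 4 embryo libraries and 9.38% and 11.3% in His, but 59.4% in IgG B. Among the coding copies alone, Zscan4d held 81.6% and 86.3% of coding reads in controls, 81.1% and 81.9% in knockdown, and 79.7% and 81.2% in His. Zscan4c held 10.1% to 12.7% of coding reads in the 4 embryo libraries and 15.9% and 13.9% in His (22 of 138 and 23 of 165 reads). The Wilson intervals in His, 10.8 to 23.0% and 9.47 to 20.05%, include shares seen in the embryos. Zscan4f held 1.32% to 3.82% in the embryos and 0.725% and 0.606% in His, on 1 read each. Zscan4d held 49.5% of coding reads in IgG B, where Zscan4b held 48.5%. In IgG A the family had 10 reads, too few to give shares. The embryo and pull-down libraries come from different embryos and separately normalized tables, and how copies were told apart in counting was not tested.

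**Figure D4:**
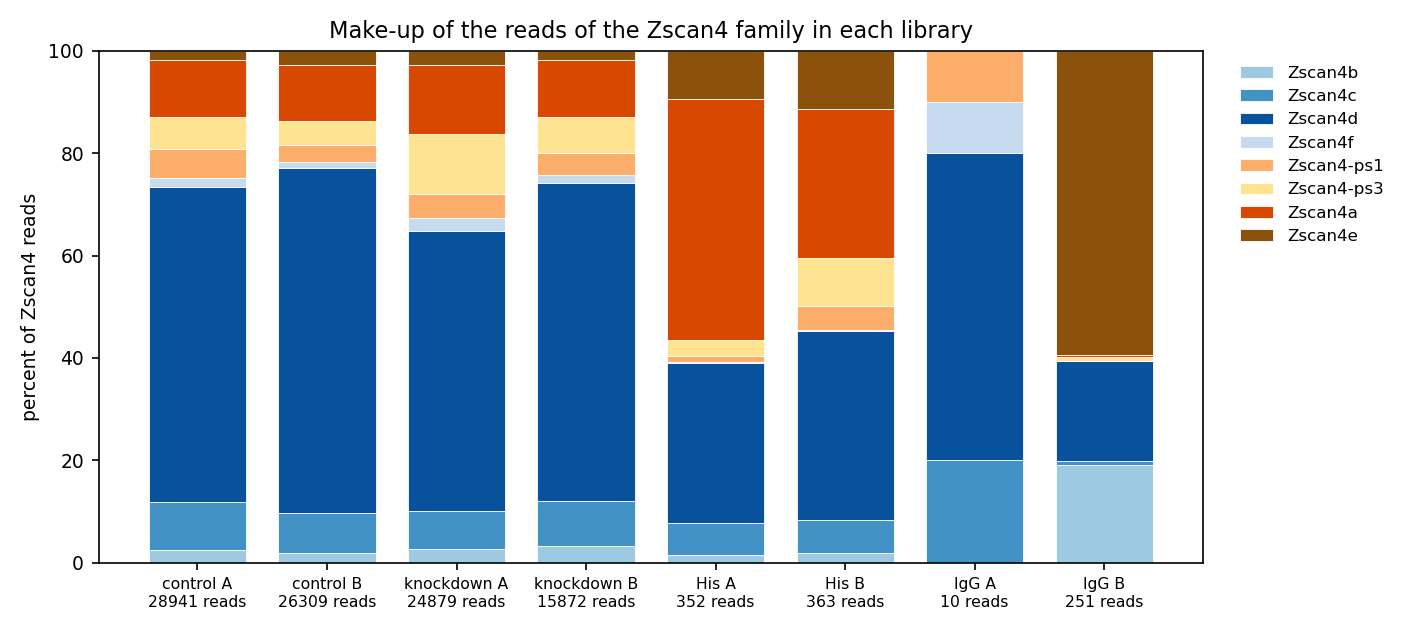
Share of each Zscan4 gene in the family's reads (percent, stacked to 100) for 8 libraries, with the number of Zscan4 reads under each. Blues are coding genes, and oranges, yellow and brown are pseudogenes. Zscan4d takes 54.6% to 67.5% in the 4 embryo libraries and 31.3% and 36.9% in His, Zscan4a takes up to 47.2% in His, and IgG A rests on 10 reads.

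The pull-down level was also set beside the embryo level, as mean CPM in His in percent of mean CPM in the control embryos. This crosses 2 separately normalized tables and different embryos, so only the order among genes is described. The 4 coding copies were at 2.11% (Zscan4d), 2.86% (Zscan4c), 3.12% (Zscan4b) and 0.756% (Zscan4f). Zscan4-ps1 and Zscan4-ps3 were at 2.61% and 4.60%, and Zscan4a and Zscan4e at 13.6% and 18.4%. The same percentage in IgG was 64.3% for Zscan4e and 21.6% for Zscan4b, above their His values. Both IgG values rest on IgG B alone, since these copies had 0 reads in IgG A, so whether His exceeds background for them depends on the IgG library. It was 0.0873% for Zscan4a and 0.807% for Zscan4d. Over the 7263 genes at 10 CPM or more in controls, the median was 63.3% and the quartiles 21.6% and 184%. All 8 members measured in both tables were below this lower quartile, and only 3.02% of the genes were lower than Zscan4d. For genes at 100 CPM or more in controls, the median was 34.2% and the lower quartile 11.6%. Zscan4a (122 CPM in controls) lay above that quartile and Zscan4d (712 CPM) below it. Below 10% were 6 of 8 members, beside 13.3% of all genes and 21.8% of the 1961 genes at 100 CPM or more in controls. Among 31 genes expressed with Zscan4 at the 2-cell stage, the median was 59.9%, and 7 (22.6%) were below 10%. Below 10% were also 3 of 9 activators (median 50.5%) and 3 of 7 markers of the 2-cell embryo (median 48.9%, lower quartile 5.41%), so a low level in His was not limited to Zscan4.

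**Figure D5:**
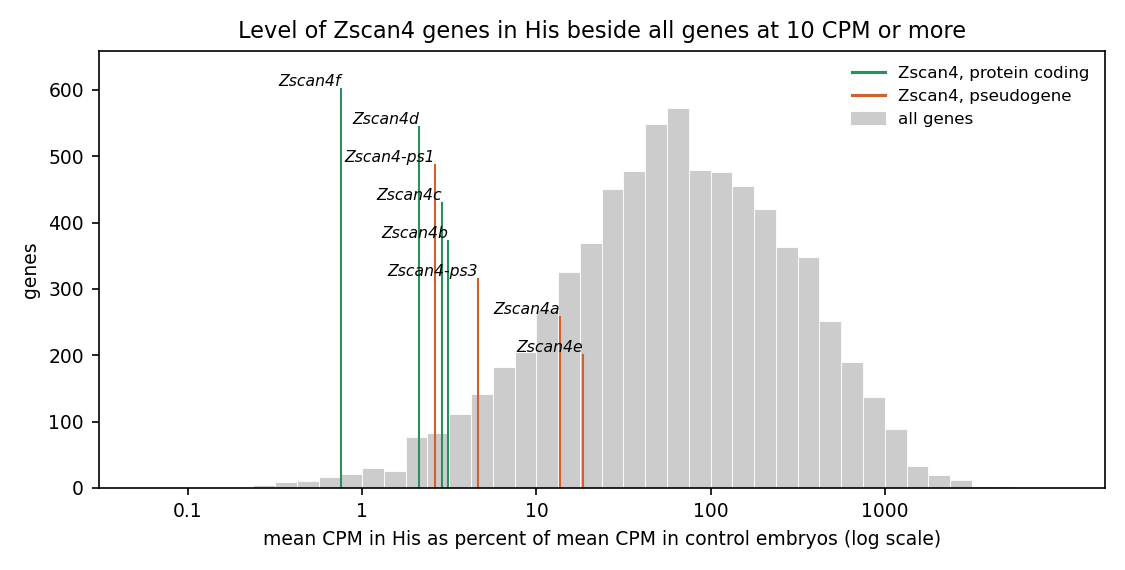
Number of genes (grey bars) by mean CPM in His in percent of mean CPM in control embryos (log scale), for genes at 10 CPM or more in controls; 7214 genes are drawn and 49 with 0 in His are not. Vertical lines mark coding (green) and pseudogene (orange) Zscan4 members, and their heights carry no value. The 8 members stand between 0.756% and 18.4%, left of the bulk of the genes, whose median is 63.3%.

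Genes known to act with the family were then followed through the same fits, beginning with 50 genes of the 2-cell programme, many of them driven by Dux or by promoters of the MERVL retroelement. The knockdown table listed 36, and 34 were tested. None was called with limma, and 6 had an unadjusted p under 0.05. Both knockdown libraries were below both controls for 12 of 34 (35.3%, beside 18.4% of all genes) and above them for 3 (8.82%, beside 18.1%). The list holds several members of single families, such as the Usp17l and Tdpoz genes, so its genes are not independent of one another. The median difference was -0.38, with 25 of 34 below 0. The smallest p values on the lower side belonged to Usp17lb, a deubiquitinase-like gene, Tdpoz4, which encodes a protein with TRAF and POZ domains, and AF067063. Tdpoz4 was at 266 and 326 CPM in controls and at 150 and 107 CPM in knockdown, and AF067063 at 1091 and 1129 CPM and at 745 and 411 CPM. On the higher side were Usp17le (difference 1.39), Usp17la (1.01) and Ubtfl1 (0.46). Usp17la and Usp17le were highest in knockdown A, at 61.0 and 22.5 CPM, and near the controls in knockdown B.

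Among 12 activators of Zscan4, 10 were tested and 0 called, with a median of -0.16. Without overlap, 4 (40%) were lower and 1 (10%) higher, beside 18.4% and 18.1% of all genes. Dppa2, which opens the chromatin of 2-cell genes together with Dppa4, was at 697 and 777 CPM in controls and at 396 and 449 CPM in knockdown (difference -0.80, limma adjusted p = 0.859). Dppa4 was at 851 and 971 CPM and at 524 and 578 CPM (-0.72). Both thus had the arrangement of Zscan4d, with knockdown libraries close together below close controls. Nfya, a subunit of a factor that binds CCAAT boxes, was at 44.2 and 74.8 CPM in controls and at 33.0 and 18.3 CPM in knockdown (-1.19). The Dux gene listed as Duxf3 was near 0, at no more than 0.143 CPM in any of these libraries. In the separately normalized pull-down libraries Duxf3 was at 20.8 and 8.21 CPM in His and at 1.86 and 0 CPM in IgG.

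Obox3, a homeobox gene of the 2-cell stage, was at 1385 and 1298 CPM in controls and at 902 and 1236 CPM in knockdown. Its relatives Obox1, Obox2 and Obox5 split the knockdown libraries instead. Obox1 was at 2413 CPM in knockdown A and 357 CPM in knockdown B, with 657 and 429 CPM in controls. Knockdown A was also highest for 7 of the 10 oocyte markers, and the part of these markers in the result was not tested.

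Of 12 repressors, all were tested and 0 called, with a median of -0.06. Without overlap, 3 (25%) were lower and 2 (16.7%) higher, beside 18.4% and 18.1% of all genes. Trim28, a corepressor that silences retroelements, was at 149 and 155 CPM in controls and at 87.2 and 62.5 CPM in knockdown (-1.03, limma adjusted p = 0.859). Rif1, which represses Zscan4 in stem cells, was at 992 and 1231 CPM and at 709 and 1310 CPM, so its groups overlapped.

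Genes of the processes tied to Zscan4 showed no common direction. Of 29 tested telomere genes 0 were called, 6 were lower and 6 higher without overlap (20.7% each, near the 18.4% and 18.1% of all genes), and the median was 0.00. The smallest p on the lower side belonged to Nhp2 and Dkc1, both parts of the particle that carries telomerase RNA: Dkc1 was at 690 and 694 CPM in controls and at 475 and 522 CPM in knockdown. Terf2ip, a shelterin subunit, had the smallest on the higher side, at 16.0 and 23.8 CPM in controls and 25.6 and 90.3 CPM in knockdown. Of 10 DNA methylation factors, Trim28 alone did not overlap (10% lower, 0 higher), and the median was 0.00. Of 22 tested zinc finger genes with a SCAN domain outside the Zscan4 family, 2 were lower and 7 higher without overlap (9.09% and 31.8%, beside 18.4% and 18.1% of all genes), with a median of 0.25. Zscan5b was at 453 and 443 CPM in controls and at 309 and 167 CPM in knockdown (-0.98), and Zkscan3 was at 0.240 and 1.33 CPM and at 3.26 and 6.05 CPM (1.69).

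In the pull-down, 12 of 32 tested genes of the 2-cell programme were called higher in His and 0 lower, at a median of 2.30, where 35.7% of all genes were called higher at a median of 2.01. Pramel19, Usp17ld and Usp17lc had the smallest p among these, each with 0 reads in both IgG libraries: Pramel19 was at 28.2 and 29.9 CPM in His. Of the 12 called, 9 were under 1 CPM in both IgG libraries and so entered the test only through His, where they are high; the counts of called genes in this paragraph are therefore a description and support nothing about the lists. Of the 12 activators 5 were called, Dppa3, Tbx3, Obox5, Nfya and Gata2. Dppa2 was at 29.9 and 48.1 CPM in His and at 0 and 83.8 CPM in IgG, the same dependence on IgG B as Zscan4e and Zscan4b. Of the 12 repressors 1 was called, Max, at 209 and 182 CPM in His and 1.01 and 1.28 CPM in IgG. Among telomere genes 7 of 25 were called higher, among other SCAN genes 8 of 18, and among DNA methylation factors 0 of 10. Zscan5b, among the SCAN genes, was at 160 and 124 CPM in His and listed at 0 in both IgG libraries.

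Finally, the genes whose profile lay nearest to the family sum were listed. Likeness was the root mean square difference of log2(CPM + 1) after centring within each table, over 8 libraries and 5320 genes at a mean of 10 CPM or more in each table. The nearest were Polr2b (0.125), which encodes a core subunit of RNA polymerase II, Cse1l (0.136), a nuclear export factor, Nicn1 (0.145), Ncoa3 (0.163), a nuclear receptor coactivator, and Secisbp2l (0.167). Polr2b was at 174 and 205 CPM in controls, 146 and 133 in knockdown, 18.1 and 18.2 in His, and 0 and 19.5 in IgG. All 5 shared with the Zscan4 family sum a low IgG A beside an IgG B near or above His, which is the widest step in these profiles. In IgG B that sum of 251 reads rests on Zscan4e (149), Zscan4d (49) and Zscan4b (48), and no other member had more than 2 reads there. With a minimum of 30 CPM, 3 of the 5 stayed among the nearest, and over the 4 knockdown-table libraries alone 0 did.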

How the data were processed

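Values deposited by the authors are CPM, reads per gene scaled to a common library total. Per the submitters' processing notes, Trim Galore 0.6.7, FastQC, HISAT2 2.2.1, featureCounts 2.0.1, edgeR and GRCm39 were named; roles, strand setting and the treatment of reads fitting several copies are not given in the sources used here. The labels' protocols name Smart-seq2 and Nextera XT kits. In all 8 libraries 100% of the deposited CPM values were whole multiples of 1 read (tolerance 0.01), so reads and totals were recovered.

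A gene entered a comparison if 2 or more of its libraries reached 1 CPM. Tests used limma 3.58.1 (R 4.3.3) on log2(CPM + 1) (eBayes with trend, two-sided, Benjamini-Hochberg over all genes tested, threshold 0.05). This scale understates differences of low genes. SEs are moderated and ± is SD over 2 replicates. limma was also run on simulated reads, and the outcome is not used here. The spread between replicates set in them lay below that estimated by edgeR for His against IgG (common dispersion 1.55). That run therefore does not show how the test behaves in that comparison. edgeR 4.0.16 and DESeq2 1.42.0 on recovered reads, other pseudocounts, filters and scalings, the replicate letter as a block, and leaving out each library were alternatives.

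The names of 4 value columns of the immunoprecipitation table do not decide between input and total RNA. They were not used, and 3 of 5 planned comparisons, which needed them, were not run. Members at a mean of at least 10 CPM in controls are given in every library. Lists of up to 12 genes could be named in full, and longer ones by the 3 smallest p in each direction; the 5 genes nearest to the family sum are named. Members and lists were chosen with earlier results of these data known. The 250-base windows and the 80-base stretches come from RefSeq's promoter table and were not joined to the GRCm39 counts.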

Additional observations from a re-analysis of the deposited data

How the results depend on the processing

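In the knockdown comparison, Zscan4d, Zscan4c, Zscan4a and Zscan4-ps3 kept their direction in 14 of 14 alternatives, and no member passed in any; Zscan4d ranged from -0.55 to -0.36 (adjusted p 0.108 to 1.00), Zscan4c from -0.60 to -0.20, Zscan4a from -0.34 to -0.033 and Zscan4-ps3 from 0.046 to 0.79. With single libraries left out, Zscan4-ps1 ranged from -0.67 to 0.13 (above 0 without control A), Zscan4b from -0.15 to 0.38 (-0.15 without control B, -0.0073 without knockdown B), Zscan4e from -0.59 to 0.050 (above 0 without knockdown B), and Zscan4f from -0.27 to 0.66 (-0.27 without control B, -0.15 without knockdown A). Genes called over the whole table went from 0 to 15 with DESeq2 and to 0 to 1894 when single libraries were left out (1894 without knockdown A, 414 without knockdown B). The family sum of -0.33 became -0.26 with median rescaling and -0.43 without pseudogenes, and lay between -0.39 and -0.26 with single libraries left out. A replicate block by letter gave 2 calls in the knockdown comparison (0 of them members) and 1 called member, Zscan4a, against IgG (adjusted p = 0.0352; Zscan4c 0.0735). Deviations of same-letter libraries correlated at 0.146 and -0.0138, and nothing states that the letters pair samples.

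Against IgG, genes called numbered 4111, but 2356 when the mean had to reach 5 CPM, 0 with quantile normalization (2339 at an unadjusted p under 0.05) and 0 with edgeR (4592 unadjusted). They ranged from 6 (without His A or His B) to 7679 (without IgG B; 7599 without IgG A). Members called went from 2 to 1 without a filter, with the 5 CPM mean, without trend and with the block, to 0 with quantile normalization (1 at an unadjusted p under 0.05) and with edgeR (2), and from 0 to 3 with single libraries left out; without His A or His B only 2 members could be tested. The family sum of 0.67 became -1.98 with quantile normalization and ranged from -0.29 (without IgG A) to 4.70 (without IgG B). Quantile normalization also turned Zscan4-ps3 to -0.96, Zscan4c to -1.43 and Zscan4d to -1.46. Zscan4e turned to 1.37 with a pseudocount of 0.1, 0.23 with median rescaling, 0.11 without His A and 2.47 without IgG B, and was -2.57 without IgG A. The cause of these moves was not tested. Where a library was left out, the remaining library of its group was assumed to vary like the other group's. IgG A held 10 Zscan4 reads, so its counting error is wide for every member, though its total was above that of IgG B.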
